A study of Mus musculus with 2 samples.

Results

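USF1 peaks that hold several copies of the factor's palindromic E-box, CACGTG, close to the summit are described here. The summit is the position of highest signal that the authors gave for each region. A peak was a member when at least 2 copies, each position counted once, lay within 50 bp of its summit in the mm9 genome. Of 10624 peaks in the mm9 list, 288 (2.71%) met this rule: 258 held 2 copies, 28 held 3 and 2 held 5. A single copy was found in 5370 peaks and none in 4966.

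The data are ChIP-seq of USF1, in which DNA bound by the factor is collected with an antibody and sequenced. The cells were CH12.LX, an immortalized B-cell lymphoma line of mouse strain B10.H-2aH-4bp/Wts, with no treatment or genetic change named in the labels. The labels give 2 biological replicates of 1 group from the same donor, and nothing says how the cultures were separated. Binding was measured, not expression, so the cell type could not be checked against marker genes. The mm9 list gives 1 value for both replicates together. No read counts were used here, so the depth of each replicate is unknown. Peaks are the units of the tests on this list, and p-values over peaks do not measure the spread between replicates.

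USF1 is a basic helix-loop-helix leucine zipper protein that binds DNA as a dimer with itself or with USF2. A dimer contacts 1 E-box, each subunit reading one side of the palindrome, and the base next to the core affects how well the site is bound. USF1 and USF2 are expressed in most tissues and are known as activators at many promoters. The same E-box is read by other helix-loop-helix zipper factors, among them MYC with MAX, and MITF and its relatives TFEB and TFE3, which are known for driving lysosomal genes.

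Stretches of mm9 sequence around the copies show what these peaks look like. Each runs 5′ to 3′ on the plus strand of NCBIM37 (mm9), with the CACGTG copies in capitals and 10 flanking bases at each end. Only stretches that overlap no annotated exon are shown. The first set holds members from the strongest promoter peaks, whose copies lie at different distances in otherwise unlike sequence.
Atg3 promoter, chr16:45158838-45158886: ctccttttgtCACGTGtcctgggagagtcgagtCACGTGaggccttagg
Cdk4 promoter, chr10:126500463-126500508: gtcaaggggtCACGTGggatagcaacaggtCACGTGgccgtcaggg
Ube2b promoter, chr11:51814349-51814405: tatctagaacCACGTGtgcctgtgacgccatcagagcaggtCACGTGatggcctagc
Atp6v0b promoter, chr4:117559937-117559980: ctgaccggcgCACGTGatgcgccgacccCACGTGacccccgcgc
Sppl3 promoter, chr5:115461070-115461114: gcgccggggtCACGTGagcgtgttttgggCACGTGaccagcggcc
Glyr1 promoter, chr16:5050008-5050116: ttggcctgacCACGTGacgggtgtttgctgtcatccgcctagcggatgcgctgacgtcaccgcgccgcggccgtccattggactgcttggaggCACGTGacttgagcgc
Rad9 promoter, chr19:4201681-4201774: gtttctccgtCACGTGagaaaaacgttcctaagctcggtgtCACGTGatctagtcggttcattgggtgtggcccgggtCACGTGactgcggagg
Dvl2 promoter, chr11:69813961-69814076: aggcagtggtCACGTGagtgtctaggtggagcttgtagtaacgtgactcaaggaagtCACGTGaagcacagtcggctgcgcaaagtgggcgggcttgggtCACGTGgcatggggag
Mfsd1 promoter, chr3:67386594-67386687: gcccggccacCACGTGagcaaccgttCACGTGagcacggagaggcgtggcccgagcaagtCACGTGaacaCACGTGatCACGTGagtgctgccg
A promoter with a single copy and one of the highest signals of that class is shown for comparison, with 20 flanking bases at each end.
Zfp207 promoter, 1 copy, chr11:80196735-80196780: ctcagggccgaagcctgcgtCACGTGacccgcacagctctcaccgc
Members whose copies lie 16 bp apart at promoters of high, middle and low signal are shown next.
5830415F09Rik promoter, chr4:46402044-46402085: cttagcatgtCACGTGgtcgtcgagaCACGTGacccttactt
Tmem144 promoter, chr3:79646258-79646299: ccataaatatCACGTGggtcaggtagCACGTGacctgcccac
Srm promoter, chr4:147966006-147966047: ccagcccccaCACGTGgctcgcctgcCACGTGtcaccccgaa
The last set comes from distal members. The first 3 of these have the highest signals of the distal members, and the others hold 3 or 5 copies with similar sequence around them.
Ubash3b intron, chr9:40882003-40882044: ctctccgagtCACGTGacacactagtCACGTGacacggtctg
Hip1 intron, chr5:136013788-136013825: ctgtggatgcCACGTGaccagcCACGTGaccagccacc
Site between genes, nearest start Ccne1, chr7:38870209-38870253: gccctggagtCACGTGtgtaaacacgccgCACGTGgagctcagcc
Site between genes, nearest start Mtap1b, chr13:100433517-100433618: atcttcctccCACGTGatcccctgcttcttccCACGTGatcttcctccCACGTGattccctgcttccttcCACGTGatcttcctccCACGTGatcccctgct
Accn1 intron, chr11:81086318-81086377: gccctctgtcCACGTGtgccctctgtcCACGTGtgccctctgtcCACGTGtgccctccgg
Site between genes, nearest start Zfp493, chr13:67893202-67893261: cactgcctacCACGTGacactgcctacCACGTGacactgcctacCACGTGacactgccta

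Windows of the same length taken 500 bp to either side of the summits gave the background for finding several copies. Of 21248 such windows 7 held 2 or more copies and 298 held 1. Among windows with any copy, 5.09% (4.55 to 5.69) at summits and 2.30% (1.12 to 4.66) at these flanking windows held 2 or more. Brackets after a share give its 95% interval by Wilson's method, which covers counting error only. The rule sets the edge at 50 bp: 23 members with 2 copies had their farther copy over 40 bp from the summit, with a median signal of 60.2. The 49 peaks just outside, with 1 copy inside and the next at most 60 bp away, had a median signal of 145.9.

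Promoters and distal sites differed. A peak was called proximal when its summit lay within 1 kb of the transcription start site (TSS) of a protein-coding transcript. Signal is the authors' value for each region; its scale is not stated, and it was compared only within a list. At proximal summits the 119 members had a median signal of 1428 (quartiles 154 and 2938), against 195.6 (68.4 and 772) in the 1629 peaks with 1 copy, a ratio of 7.30. Away from promoters the 169 members had a median of 61.9 (39.5 and 118), against 59.99 (39.4 and 121.5) in the 3741 peaks with 1 copy, a ratio of 1.03. Peaks with no copy had medians of 53.4 at proximal and 52.5 at distal summits. A signal above 1000 was reached by 69 of 119 proximal members (58.0%) and 324 of 1629 proximal peaks with 1 copy (19.9%). At distal summits it was reached by 3 of 169 members (1.78%) and 61 of 3741 peaks with 1 copy (1.63%).

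**Figure D1:**
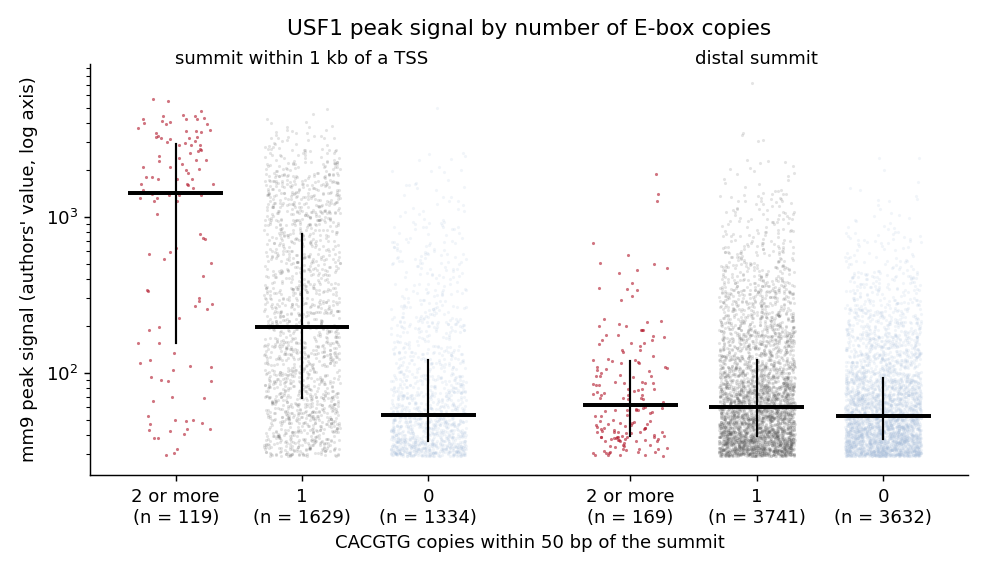
Signal of every mm9 peak (log axis) by the number of CACGTG copies within 50 bp of the summit, at proximal summits (left 3 groups) and distal summits (right 3 groups); the thick line is the median and the vertical line spans the quartiles. Proximal peaks with 2 or more copies centre on 1428 against 195.6 for 1 copy, while the distal groups centre on 61.9 and 59.99.

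Over all peaks, 186 of 288 members (64.6%) had a signal above the median of the list, against 3055 of 5370 peaks with 1 copy (56.9%). The background is 50% of all peaks, and the odds ratio was 1.38 (1.07 to 1.79; two-sided Fisher's exact test, p = 0.0102). Stratified by position the common odds ratio was 1.23 (0.942 to 1.61) and did not pass (exact Mantel-Haenszel test, p = 0.120). The 2 positions differed: at proximal summits the shares were 86.6% and 77.3% (odds ratio 1.89, 1.09 to 3.48, Fisher's exact test, p = 0.0163). At distal summits they were 49.1% and 48.0% (odds ratio 1.05, 0.758 to 1.44, Fisher's exact test, p = 0.814). At a higher bar, the upper quartile of all peaks (25% by construction), 90 of 119 proximal members (75.6%) and 912 of 1629 proximal peaks with 1 copy (56.0%) passed. That difference was called (odds ratio 2.44, 1.57 to 3.89; Fisher's exact test, p = 2.06e-05). At distal summits 20.7% of members and 21.4% of peaks with 1 copy passed the same bar, with an odds ratio of 0.957 (0.635 to 1.41; Fisher's exact test, p = 0.924). The choice of comparison mattered for the pooled share. A set of 133 peaks had 1 copy wholly inside the window and the next centred at most 100 bp from the summit. Of these, 76.7% lay above the median. Against them the odds ratio for members turned to 0.555 (Fisher's exact test, p = 0.0133). At proximal summits the members' median of 1428 stood against 319 in the proximal ones of those 133 peaks (40.6% of them).

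A linear model of log2 signal over the 5658 peaks with any copy gave the size of these differences with other features held. Its terms were position, GC content, the best flanking bases of any copy and the distance of the nearest copy from the summit. For the last 2 terms members had 2 or more copies to draw from, and the other peaks had 1. With 1 term for all peaks, 2 or more copies went with 0.39 higher log2 signal (0.18 to 0.60, p = 0.000294, n = 5658 peaks). The difference between positions was itself tested: the term for 2 or more copies was larger at proximal than at distal summits by 1.59 ± 0.22 on the log2 scale (standard error; 1.16 to 2.02, p = 4.52e-13, n = 5658 peaks). This fit gave each other term 1 slope for both positions. In separate fits the term for TCACGTGA flanks was 2.38 at proximal and 0.35 at distal summits. The size of 1.59 thus rests on shared slopes, and a difference with free slopes was not tested. Fitted on proximal peaks alone, members were 2.01-fold higher (1.57 to 2.56), or 1.01 on the log2 scale, with all terms. With none they were 3.14-fold higher (2.31 to 4.26). Fitted on distal peaks alone, the log2 difference was -0.18 (-0.36 to 0.01, p = 0.0567) with all terms and -0.01 (-0.20 to 0.18, p = 0.918) with none (n = 3910 peaks).

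Proximal members were most frequent at the upper end of the list. Ranked by signal among proximal peaks with CACGTG, members made up 16 of the first 25 (64%), 27 of the first 50 (54%) and 41 of the first 100 (41%). Their share was 12% (7.0 to 19.8) over the next 100 ranks, 8% (4.98 to 12.6) over the 200 ranks after those, and 3.69% (2.67 to 5.09) below rank 800. Among distal peaks with CACGTG the share was 3% (1.03 to 8.45) in the first 100 and 4.37% (3.71 to 5.15) below rank 800, and the intervals of the distal groups overlap. In the whole list, members made up 15 of the 25 strongest peaks and 38 of the 100 strongest, where 58 had 1 copy and 4 had none.

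**Figure D2:**
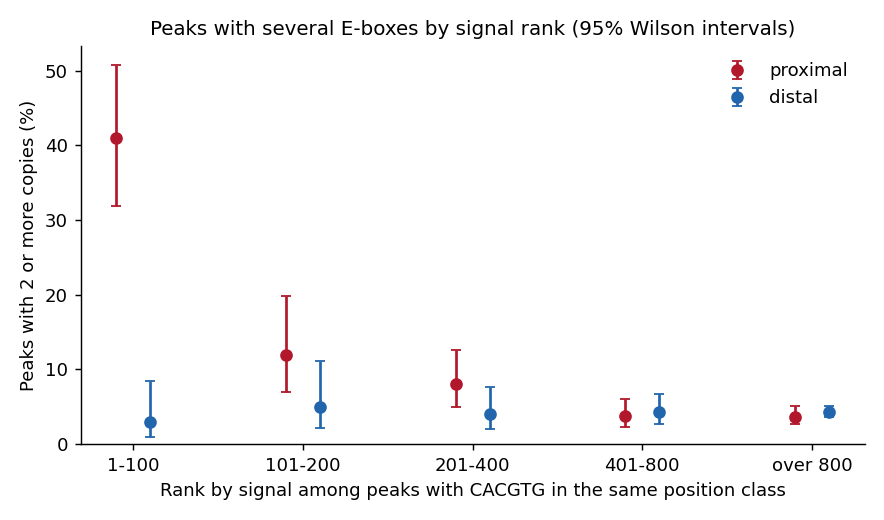
Share of peaks with 2 or more copies among all peaks with CACGTG, by signal rank within proximal (red) and distal (blue) peaks; bars are 95% Wilson intervals. The proximal share is 41% in the first 100 and 3.69% below rank 800, and the distal share lies between 3% and 5% in every group.

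Peaks with 3 or more copies followed the same division by position. The 8 proximal peaks with 3 or more copies had a median signal of 3001, and 7 of them exceeded 1000. The 22 distal ones had a median of 72.3 and a highest value of 337. The extremes were the peaks with 5 copies: 3558 at the promoter of Mfsd1, a transporter of lysosomal membranes, and 188 at a site 147013 bp from the nearest annotated start, that of Mtap1b. The distal copies stand 22 and 16 bp apart in turn, as the sequence above shows.

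Copies that recur with their surroundings were counted by comparing the 10 bases on each side of neighbouring copies. Flanks were called repeated when at least 14 of these 20 bases were identical, a limit chosen after the sequences had been seen. Repeated flanks were found in 32 of 169 distal members (18.9%, 13.7 to 25.5) and 1 of 119 proximal members (0.840%, 0.148 to 4.61), with an odds ratio of 27.4 (4.43 to 1132; Fisher's exact test, p = 2.26e-07). Between neighbouring copies neither peak with 5 copies reached this limit, with at most 9 identical bases at Mfsd1 and 12 at the site nearest Mtap1b. Copies that are not neighbours were not compared. In the sequence above, copies 1, 3 and 5 of the Mtap1b site have the same 10 bases before the core. That recurrence lies outside these counts. Repeated flanks were found in 14 of the 22 distal peaks with 3 or more copies. At the intron site of Accn1 and the site near Zfp493 all 20 flanking bases matched, with copies every 17 bp and signals of 87.5 and 58.1. The median signal of distal members was 53.1 with repeated flanks and 68.9 without. Leaving out all peaks with repeated flanks gave a position-stratified odds ratio of 1.35 for signal above the median, which then passed (exact Mantel-Haenszel test, p = 0.0374). Only members can have repeated flanks, and the 33 left out had a median signal of 57.3, against 121.7 in the other members. The filter thus took peaks of lower median signal from 1 side of the comparison, and nothing is read from the change.

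Proximal members also differed from each other by the base beside the core. A copy was called favoured when it reads CACGTGA on either strand; this split was chosen with earlier results on the flanks of these peaks known and applied after the signals had been seen. Of the 111 proximal peaks with exactly 2 copies, 59 had both favoured and a median signal of 2378 (1457 and 3490). The 31 with 1 favoured copy of 2 had a median of 537 (113 and 1496), against 434 (115 and 1154) in 1039 proximal peaks whose single copy was favoured. The 21 with no favoured copy had a median of 88.1 (47.9 and 224), against 84.7 (48.0 and 184) in the 590 proximal peaks whose single copy was not favoured.

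Of 6 comparisons between pairs and single copies, 1 passed, that of proximal pairs with both copies favoured. The upper quartile was passed by 56 of 59 proximal peaks with both copies favoured (94.9%) and 726 of 1039 with a single favoured copy (69.9%), with an odds ratio of 8.04 (2.58 to 40.5; Fisher's exact test, adjusted p = 2.97e-05). It was passed by 67.7% of peaks with 1 favoured copy of 2 and 69.9% of those with a single favoured copy (odds ratio 0.905, 0.403 to 2.18; Fisher's exact test, adjusted p = 1). Without a favoured copy it was passed by 28.6% and 31.5% (odds ratio 0.869, 0.272 to 2.42; Fisher's exact test, adjusted p = 1). At distal summits none of the 3 comparisons passed: with both copies favoured the share was 22.9%, against 23.6% with a single favoured copy (odds ratio 0.959, 0.509 to 1.72). The wide intervals of the smaller groups leave room for differences of either sign, and whether the comparisons differ from each other was not tested. Both promoter copies of Cdk4, Atp6v0b and Glyr1 above are favoured, as are all 3 of Rad9 and Dvl2, while neither copy of Srm is.

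**Figure D3:**
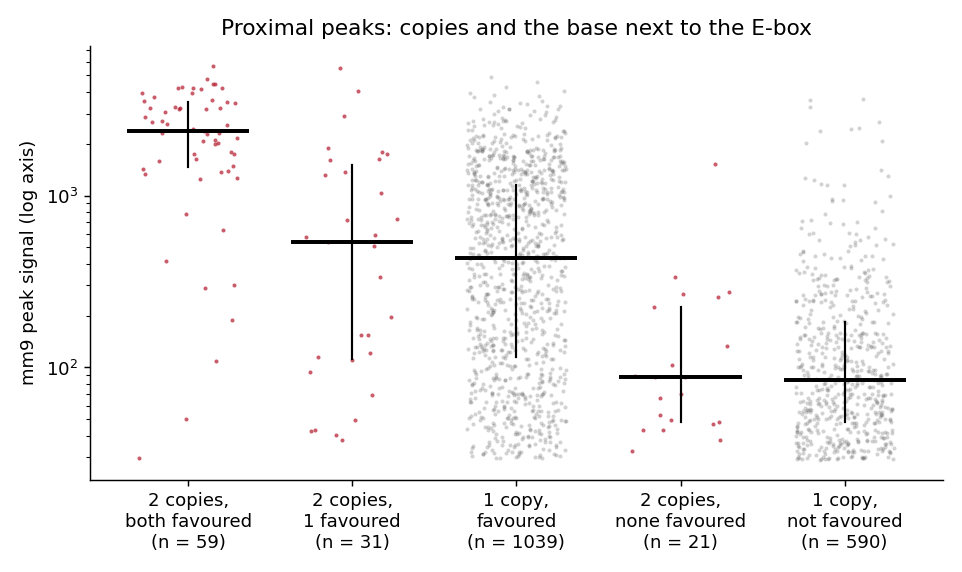
Signal of proximal mm9 peaks (log axis) with exactly 2 copies (red) or 1 copy (grey), by how many copies read CACGTGA on either strand; thick lines are medians and vertical lines span the quartiles. Pairs with both copies favoured centre on 2378 and single favoured copies on 434, whereas pairs and single copies with no favoured copy centre on 88.1 and 84.7.

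The copies stood at many distances. Between the centres of 322 neighbouring pairs the distance ran from 8 to 83 bp, with a median of 23 bp (quartiles 16 and 38.8). The commonest distance was 16 bp with 20 pairs, which leaves 10 bp between the cores, followed by 14 bp with 15 pairs and 11 bp with 13. At proximal summits the median was 28 bp over 129 pairs, and 10 pairs stood 16 bp apart. At distal summits it was 21 bp over 193 pairs, and 12 pairs stood 14 bp apart. Copy pairs 250 to 1000 bp from the same summits, 93 in all, had a median of 27 bp, and 3 of them touched.

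Distances of at most 30 bp were found in 199 of 322 pairs at summits (61.8%) and in 49 of 93 pairs away from them (52.7%). This difference did not pass (odds ratio 1.45, 0.887 to 2.37; Fisher's exact test, p = 0.120). Both copies of a summit pair must lie within 50 bp of the summit, which by itself favours short distances, while the pairs away from summits were limited only to 95 bp between centres, so nothing is read from this comparison at any limit. The share was 55.8% at proximal and 65.8% at distal summits (odds ratio 0.657, 0.405 to 1.07; Fisher's exact test, p = 0.0796). Signal in proximal peaks with exactly 2 copies had medians of 1750 at 6 to 20 bp, 725 at 21 to 40 bp and 1353 at 41 to 95 bp. Of proximal pairs at most 30 bp apart 31 of 62 lay above the median of these peaks, against 24 of 49 farther apart (odds ratio 1.04, 0.461 to 2.36; Fisher's exact test, p = 1). In distal peaks the medians were 79.0, 56.8 and 47.7 over the same distances, and 53.3% of close pairs lay above their median against 43.6% of the others (odds ratio 1.47, 0.713 to 3.05; Fisher's exact test, p = 0.307). The 8 proximal peaks with exactly 2 copies 16 bp apart had a median signal of 2958, with a range of 38.1 to 4142. The median of all 111 proximal peaks with exactly 2 copies was 1378. At distal summits the 8 peaks with this spacing had a median of 59.5. Signal at this spacing was not tested. Proximal examples had signals of 2173 at 5830415F09Rik, 289 at Tmem144 and 38.1 at Srm, which encodes spermidine synthase.

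**Figure D4:**
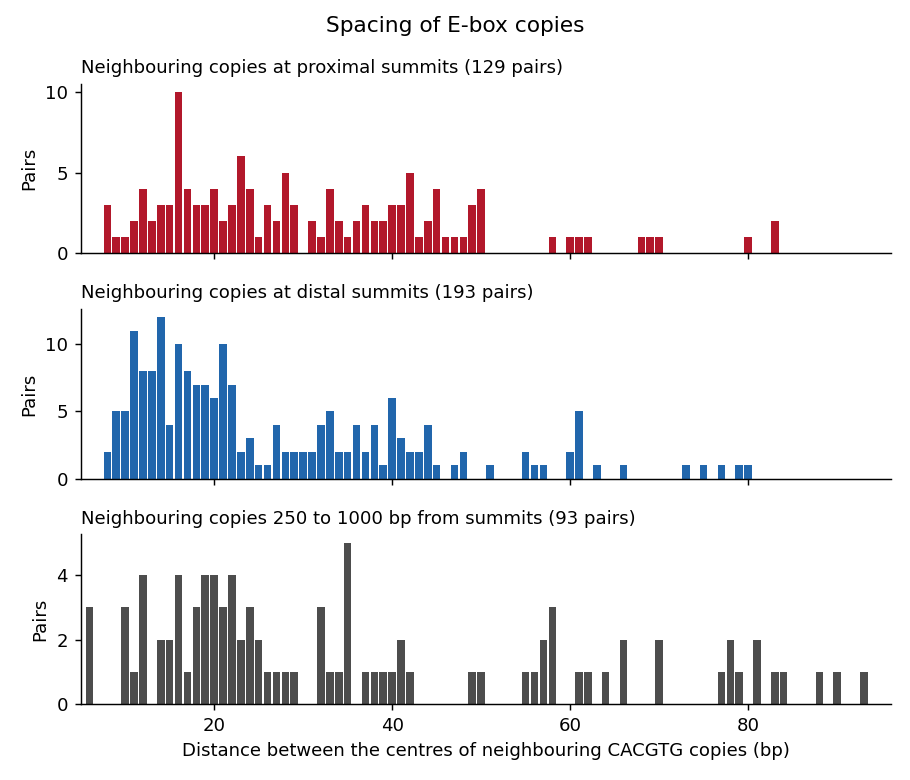
Number of neighbouring CACGTG pairs at each distance between centres (bp) at proximal summits (red, 129 pairs), at distal summits (blue, 193 pairs) and 250 to 1000 bp from summits (grey, 93 pairs). The 16 bp bar is the tallest at proximal summits with 10 pairs, and the 14 bp bar is the tallest at distal summits with 12.

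The summit fell between the copies in 178 of 258 peaks with exactly 2 (69.0%, 63.1 to 74.3). The midpoint of the pair lay a median of 7.5 bp from the summit, the nearer copy 8.5 bp and the farther copy 22.5 bp. In peaks with 1 copy that copy lay a median of 10.5 bp away. The rule limits each copy to 50 bp and so bounds these distances, and no test was made of them.

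Members lay at promoters more often than peaks with 1 copy. Of 288 members 119 (41.3%, 35.8 to 47.1) were proximal, against 1629 of 5370 peaks with 1 copy (30.3%, 29.1 to 31.6), and 29% of all peaks were. The odds ratio was 1.62 (1.26 to 2.07; Fisher's exact test, p = 0.000138). Within 5 equal bins of signal the common odds ratio was 1.38 (1.05 to 1.82; exact Mantel-Haenszel test, p = 0.0180). The strongest bin passed by itself: 87 of 109 members (79.8%) and 58.0% of peaks with 1 copy there were proximal (odds ratio 2.86, 1.75 to 4.86; Fisher's exact test, p = 4.06e-06). That bin spans signals from 191 to 7241, so signal was not held even within it. The common odds ratio leaves signal differences inside the bin unadjusted. In the other 4 bins the odds ratios ran from 0.466 to 1.53 and none passed. Counting copies within 25 bp of the summit ended both calls, with odds ratios of 1.35 and 1.09 (exact tests, p = 0.0722 and p = 0.650). The call within signal bins was also lost in the strongest 5000 peaks (1.26; exact test, p = 0.194) and with starts within 5 kb (1.13; exact test, p = 0.364). Of the distal members 73 lay in introns, 94 between genes and 2 in exons.

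Around the start site, 1 measure of place was tested and did not pass. Copies of proximal members lay a median of 25 bp upstream of the nearest start, with 64.5% upstream, and single copies a median of 29.5 bp upstream, with 62.7% upstream. The summit was within 100 bp of the start in 58 of 119 members (48.7%) and 44.9% of proximal peaks with 1 copy (odds ratio 1.17, 0.788 to 1.72; Fisher's exact test, p = 0.446). The 119 members lay within 1 kb of 133 genes, and 14 of them (11.8%) lay within 1 kb of more than 1 gene, against 11.05% of proximal peaks with 1 copy.

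Other sequence within 50 bp of the summit was compared for 13 motif strings, searched on both strands, and for the 10 forms of the nearest copy with its neighbouring bases. None of the 13 strings passed. The non-palindromic E-box CACATG was found in 13.2% of members and 9.48% of peaks with 1 copy (Fisher's exact test, adjusted p = 0.264), and in 35.3% of all windows. The SP/KLF string GGGCGG stood in 17.4% and 13.2%, and in 13.2% of all windows. The CCAAT string stood in 9.72% and 13.7%, and in 17.0% of all windows. Of the flanking forms GCACGTGC passed, at 3.82% of members and 1.23% of peaks with 1 copy (odds ratio 3.19, 1.502 to 6.17; exact test, adjusted p = 0.0162), and that call was lost in a 25 bp window and in the strongest 5000 peaks. GC content outside the copies had medians of 64.0% in members and 63.2% in peaks with 1 copy at proximal summits, and 51.8% and 50.5% at distal summits. A string match is a match of letters and no evidence of a bound site.

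The 2 replicates were examined in their own mm10 lists. Proximal peaks were placed in mm10 by an exact match of the 41 bases around the summit to RefSeq promoter sequences of GRCm38.p6, which reach from 250 bp before to 50 bp after a start, so only peaks near a start could be placed. This gave a place to 61 of 119 members and 682 of 1629 peaks with 1 copy. All 61 members had an mm10 summit within 100 bp in both replicates, as did 668 of the 682 others. In replicate 1 the median signal was 262 in members and 134 in peaks with 1 copy, a ratio of 1.96. In replicate 2 it was 279 in members and 158.5 in peaks with 1 copy, a ratio of 1.76. The highest mm10 values were 318 and 328 in members and 321 and 320 in peaks with 1 copy, so signal spanned a narrower range at the top than in the mm9 list.

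By mean rank over both replicates, 54 of the 61 members (88.5%, 78.2 to 94.3) lay above the median of the placed peaks, against 310 of 668 peaks with 1 copy (46.4%, 42.7 to 50.2). The background was 49.9%, and the odds ratio was 8.89 (3.95 to 23.5; Fisher's exact test, p = 4.45e-11). Each replicate by itself gave nearly the same: 8.85 in replicate 1 and 7.58 in replicate 2. The replicates went into the mm9 list too, so this is the same experiment read in each replicate. This placement was chosen after a coarser one had been seen, in which each gene took its strongest mm10 region within 1 kb. There, 82 of 89 genes with a proximal member (92.1%) and 957 of 1084 genes with a proximal 1-copy peak (88.3%) lay above the median of all 4683 genes, where the background is 50%. That difference did not pass (odds ratio 1.55; p = 0.384), while in the authors' optimal list the shares were 82.4% and 63.5% (odds ratio 2.69; p = 0.000335).

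**Figure D5:**
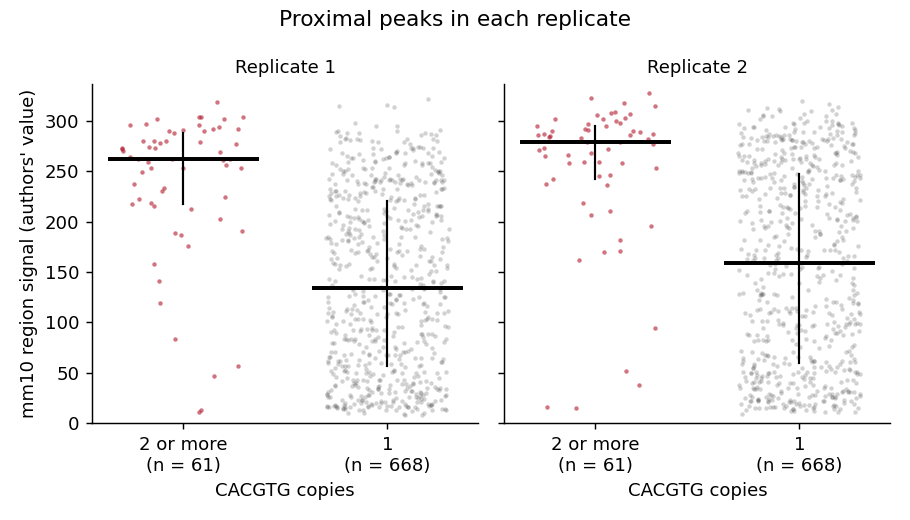
Signal in the mm10 list of each replicate for proximal mm9 peaks placed in mm10 and found in both replicates, with 61 peaks of 2 or more copies (red) and 668 of 1 copy (grey); thick lines are medians and vertical lines span the quartiles. Members centre on 262 and 279 in replicates 1 and 2, and peaks with 1 copy on 134 and 158.5.

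The strongest members belonged to promoters of many functions. The 25 strongest proximal members had mm9 signals from 3217 to 5697 and lay among the first 47 peaks of the whole list. Of these, 22 could be placed in mm10 and all 22 were found in both replicates, at 187 to 318 in replicate 1 and 196 to 328 in replicate 2. Slc36a1, a proton-coupled amino acid transporter of lysosomes and the plasma membrane, had the highest signal of all members, 5697, with copies 28 bp apart, and 302 and 279 in replicates 1 and 2. Ube2b, a ubiquitin-conjugating enzyme of DNA damage tolerance, followed at 5497, with 290 and 291 in the replicates. Atg3, the enzyme that attaches the autophagy protein LC3 to lipid, had 4750, with 269 and 287 in the replicates. The highest mm10 values span a narrow range, so no order among these 3 genes is read from the replicates.

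Others of the strongest members differed in spacing and copy number. Eif4g1, the scaffold of the complex that recruits ribosomes to capped mRNA, had an mm9 signal of 4483 with copies 69 bp apart, and 318 and 328 in replicates 1 and 2. Cdk4, the cyclin D kinase that drives entry into S phase, had 4453 with copies 20 bp apart, and 280 and 283 in the replicates. Rad9, part of the clamp that signals DNA damage, had 3 copies and a signal of 4014. Its copies stand 31 and 37 bp apart. Sgol1, which protects centromeric cohesion, had 4211 with copies 61 bp apart, and Dvl2, a relay of Wnt signals, had 4446 with 3 copies. Wide pairs, as at Eif4g1 and Sgol1, were thus found beside close pairs among the strongest members. Among further peaks with 3 copies, those at Bax, the pore-forming protein of cell death, and Apex1, an endonuclease of base excision repair, had signals of 3029 and 2973, while Ptprs, a receptor phosphatase, had 1397.

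Of 12 gene lists the lysosome list had the largest count of proximal members. Of all 22232 protein-coding genes 0.598% had a member within 1 kb of a start and 14.3% had any peak. On the lysosome list 7 of 32 genes had a member and 9 had a peak with 1 copy. Among those with a member were Lamp1, a major membrane glycoprotein of lysosomes; Mcoln1, their calcium release channel; Ctsa, a protease that also shields other enzymes; Cln3, mutated in human juvenile Batten disease; and the hydrolases Gla and Hexa. The Gla peak lies within 1 kb of the starts of both Gla and Hnrnph2, and the Ctsa peak likewise of Ctsa and Neurl2. Lists were drawn up with earlier results of these data known, and counts are given with no test.

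The lysosomal members spanned a range of signals and spacings. Lamp1 had an mm9 signal of 4301 with copies 13 bp apart, and 187 and 196 in replicates 1 and 2, the lowest replicate values among the 22 placed promoters. Mcoln1 had 3169 with copies 26 bp apart, and 278 and 306 in the replicates. Ctsa had 2291 with copies 17 bp apart, and 262 and 279 in the replicates. Cln3 had 1622, the Gla start 1597 and Hexa 1327. Hexa lay below the median of proximal members, 1428, and Lamp1, Mcoln1, Ctsa, Cln3 and Gla above it. In the strongest set, Nagpa, which trims the mannose 6-phosphate tag of lysosomal enzymes, had 4243, and Clcn6, a chloride-proton exchanger of late endosomes, had 3540.

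The proton pump and autophagy lists had fewer members. Of 16 subunit genes of the vacuolar ATPase, the pump that acidifies lysosomes, 2 had a member: Atp6v0b, in the membrane sector, at 3948, and Atp6v1h, in the catalytic sector, at 1750. A further 6 had a peak with 1 copy. Of 27 autophagy genes 2 had a member, Atg3 and Vps33a. Vps33a encodes a subunit of the tethering complexes that fuse vesicles with lysosomes. Vps33a had a signal of 4142 with copies 16 bp apart, and 297 and 303 in replicates 1 and 2. Both of its copies have the form TCACGTGA.

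The other lists had few proximal members or none. Of 26 genes of nucleotide and one-carbon synthesis 2 had one, Shmt1 (serine hydroxymethyltransferase) at 1740 and Nme2 (a nucleoside diphosphate kinase) at 276. Another proximal peak of Nme2, with 1 copy, had a higher signal of 1334. The cell cycle list had Cdk4 as 1 of 33, the circadian clock list had Nr1d2, a nuclear receptor of the clock, as 1 of 21 at 338, and the glycolysis list had Hk2, a hexokinase, as 1 of 17 at 88.1. Both copies of Hk2 lack the favoured base. No proximal member was found for 20 genes of the endoplasmic reticulum stress response, 17 of bHLH-ZIP factors, 27 of B-cell identity, 48 of the cytosolic ribosome and 21 of lipid synthesis. These had 4, 5, 7, 9 and 4 genes with a peak of 1 copy. With 0.598% of all genes holding a proximal member, lists of this size could hold none without differing from the background. Distal members were not counted for any list.

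The strongest distal members stood apart from most others. In an intron of Ubash3b, a phosphatase that dampens receptor signals, the signal was 1890 with copies 16 bp apart. An intron of Hip1, an adaptor of clathrin coats, had 1409 with copies 12 bp apart. A site 21703 bp from the nearest start, that of Ccne1, the cyclin of the G1 to S step, had 1254 with copies 19 bp apart. The next were 674 at a site 1457 bp upstream of Tec, a tyrosine kinase of haematopoietic cells, and 572 in an intron whose nearest start is that of Pop7, a subunit of RNase P. The upper quartile of distal members is 118, so these 5 are the tail of the class. Nearest starts are given as positions, and which gene a distal site acts on was not measured.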

How the data were processed

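The deposited files used here are narrowPeak region lists; their signal value (column 7) and summit offset were made by the authors, with aligner, caller and cut-off not given in the sources used here. Per the deposited readme files, the mm9 list came from both replicates' mm9 alignments, each replicate has a relaxed mm10 list, and the optimal and conservative lists were thresholded by IDR. Signal was compared within a list only. CACGTG was counted within 50 bp of summits in NCBIM37 with Gencode vM1 starts, using Python 3.11.15, pysam 0.24.0, pandas 2.3.3, scipy 1.17.1, statsmodels 0.14.6 (least squares with HC3 errors) and R 4.3.3 (exact Mantel-Haenszel). Tests were two-sided at 0.05, adjusted by Benjamini-Hochberg within each family, and the scripts were tested on simulated data. Alternatives changed the window, summit, list, TSS distance, spacing limit, comparison set and model terms.

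Named genes are those nearest the 25 strongest proximal and 5 strongest distal members, the 10 strongest with 3 or more copies, and list genes with a proximal member; those outside this rule are shown for their sequence. Members and lists were chosen with earlier results of these data known. Of 313 list entries 305 matched the annotation. Controls were not analysed here. RefSeq promoter sequences (GRCm38.p6) served to place peaks in mm10, and no coordinates were converted. The sequences printed come from NCBIM37. Some items that the rule would name are not reported here.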

Additional observations from a re-analysis of the deposited data

Results flagged for a closer look

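The signal difference between peaks with 2 or more copies and peaks with 1 copy was larger at proximal than at distal summits, by 1.59 on the log2 scale (1.16 to 2.02, p = 4.52e-13; linear model with an interaction term, n = 5658 peaks). The members behind it had median signals of 1428 at proximal and 61.9 at distal summits, against 195.6 and 59.99 in peaks with 1 copy. Over 9 other settings the difference between positions ran from 0.97 to 1.81 and passed in each. In the same fit the term at distal summits was -0.26 (p = 0.00658), while distal peaks fitted by themselves gave -0.18 (p = 0.0567, n = 3910 peaks). Repeated flanks were found in 18.9% of distal and 0.840% of proximal members. Without those peaks the shared-slope difference was 1.47 (linear model, p = 1.13e-10, n = 5625 peaks). That filter removes members only, 32 of the 33 distal, so nothing is read from this value.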

How the results depend on the processing

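Depth and the signal scale are unknown, all results rest on 1 experiment, and peaks are not replicates. No paired analysis was possible because the series has 1 group. Leaving out soft-masked repeats was not run, since the genome sequence used is not soft-masked. Of 88 values under other settings 69 kept their direction and side of the threshold or, where plain counts, stayed near the main count. Windows of 25 bp left 165 members, those of 100 bp gave 421 and the strongest 5000 peaks 184. The promoter share fell short at 25 bp (odds ratio 1.35), and within signal bins at 25 bp (1.09), in the strongest 5000 peaks (1.26) and with starts within 5 kb (1.13). The signal share reversed to 0.555 (Fisher's exact test, p = 0.0133) against 1-copy peaks with the next copy centred at most 100 bp from the summit. Within position it passed at 100 bp (1.48), with starts within 5 kb (1.31), at the upper quartile (1.44) and without repeated flanks (1.35). The last of these settings removes members only. Close spacing passed at 100 bp (1.499) and with a 40 bp limit (1.74), though the window itself favours close pairs. Sequence features passing numbered 0 at 25 bp, 2 at 100 bp and 0 in the strongest 5000 peaks. The gene-level odds ratio passed in the optimal list (2.69) and the conservative list (3.11), which were each made from both replicates. With either replicate left out it ran from 1.72 to 1.87 and did not pass. Placed peaks, compared as peaks and not as genes, gave 8.89, which passed. Of the 25 strongest named promoters 13 remained members at 25 bp. The causes were not tested.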
